A study of Mus musculus with 12 samples.

Results

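The core circadian clock genes were read in the cortex of mice that carry the Y446C allele of Tbl1xr1 on both chromosomes and in wild-type mice. The set holds 10 genes, named by their place in the clock and matched by symbol through GENCODE M21 to the 54232 gene identifiers of the count table: Arntl (also called Bmal1), Clock, Per1, Per2, Per3, Cry1, Cry2, Nr1d1, Nr1d2 and Dbp. The mice were of strain C57BL/6J and 12 weeks old. The 6 mutants (Tbl1xr1 Y446C/Y446C) and the 6 wild-type mice each comprised 3 females and 3 males, and each of the 12 libraries held the mRNA of 1 mouse. Libraries are called here by sex, genotype and animal number. The sources used here do not give the hour at which the mice were killed. Gene counts cannot show the substituted amino acid, so they do not check the genotype labels.

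The clock is a loop of transcription and delayed repression that most cells run. CLOCK and the Arntl protein bind E-boxes as a pair and switch on the Per and Cry genes, the Rev-erb genes Nr1d1 and Nr1d2, and Dbp. PER and CRY proteins then return to the nucleus and repress that pair, while the Rev-erb proteins bind RORE elements and repress Arntl, Clock and Cry1. The Rev-erb proteins do this through the NCoR and HDAC3 corepressor complex, of which Tbl1xr1 encodes a subunit. In tissues with a running clock the Arntl transcript therefore peaks at about the opposite time of day to the transcripts of Per genes, Dbp and Nr1d1. In cortex Per1 and Per2 also respond to neuronal activity and to glucocorticoids.

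Promoters of the set were searched for the elements that tie its members together, in RefSeq windows (build GRCm38.p6) that run from 250 bases before to 50 bases after each annotated start. These were read for the 9 members other than Per2, which had 13 windows among them. The stretches below carried a match, printed 5′ to 3′ on the gene's strand with the matched letters in capitals. They are shown because each is of a kind through which clock proteins act on clock genes.
Per3, chr4:151044796-151044890, minus strand: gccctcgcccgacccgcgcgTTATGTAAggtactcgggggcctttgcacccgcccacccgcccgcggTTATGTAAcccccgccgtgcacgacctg
Per1, chr11:69098763-69098808, plus strand: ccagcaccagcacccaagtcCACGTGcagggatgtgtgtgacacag
Cry1, chr10:85185089-85185153, minus strand: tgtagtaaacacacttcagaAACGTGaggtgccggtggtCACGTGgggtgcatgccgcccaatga
Cry2, chr2:92434210-92434255, minus strand: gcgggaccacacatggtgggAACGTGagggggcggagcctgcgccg
Nr1d1, chr11:98775380-98775425, minus strand: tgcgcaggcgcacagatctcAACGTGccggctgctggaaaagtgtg
Arntl, chr7:113207530-113207558, plus strand: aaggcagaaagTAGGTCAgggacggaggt

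The Per3 window held the D-box TTATGTAA, the element bound by the DBP protein, at 205 and at 158 bases before the start. Of 32851 RefSeq promoter windows of this length, 1.06% held a D-box (TTATGTAA or TTACGTAA, either strand) and 8 windows, 0.0244%, held at least 2. The E-box CACGTG stood 166 bases before the start of Per1 and 60 bases before that of Cry1, and 7.15% of all windows held it. The variant CACGTT, printed above as its reverse complement AACGTG, occurred in the windows of Cry1, Cry2 and Nr1d1 and in 4.69% of all windows. Arntl had the RORE core TAGGTCA 30 bases after a start, inside an annotated exon, and 6.45% of windows held TAGGTCA or TGGGTCA on either strand. The cyclic AMP response element TGACGTCA, present in 1.79% of windows, was in none of the 13. These matches describe letters in a window and were not tested for binding.

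Counts assigned to genes ran from 21238427 to 32669138 in 11 libraries, and mitochondrial genes took 5.23% to 10.4%. Female mutant 3 was much shallower, at 3748515 counts, 31.6% of them mitochondrial. Results that rest on it are given with and without it. All 10 members passed the filter on low counts in a table of 18016 tested genes. The lowest count of any member was 34, for Dbp in female mutant 3, where Per3 had 51 and Cry1 41. Some exon bases are shared with a gene on the opposite strand: 18.01% of those of Dbp with Sphk2, 8.55% of those of Nr1d1 with Thra and 4.67% of those of Cry2 with a noncoding transcript. The sources used here do not say whether strand was used in counting. The counts of these members may therefore hold reads of their neighbours or miss reads from the shared bases. Cortical excitatory neuron markers (6 genes, among them Slc17a7 and Camk2a) summed to 2412 to 3893 CPM. CPM is a gene's counts relative to the TMM-adjusted library total, scaled to a common size. Female mutant 3 had a TMM factor of 0.690 and the other 11 libraries 0.987 to 1.09, and a lower factor raises every CPM of its library. The 8 hypothalamic markers summed to 1.23 CPM (male mutant 10) to 39.9 CPM (female mutant 3). The 4 thalamic markers summed to 36.3 to 214 CPM, and the part of these differences between libraries in the correlations was not tested.

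Per kilobase of exon, the Rev-erb genes were the most abundant members and Per3 the least. The length used was that of all annotated exons of a gene, merged over its transcripts, and the order depends on it. Nr1d2 stood at 24.6 ± 4.08 CPM per kb and Nr1d1, the other Rev-erb gene, at 24.0 ± 4.65 (SD, n = 12 for all levels in this paragraph). These neighbours did not differ beyond their spread. Cry2 followed at 16.5 ± 2.71 CPM per kb, Clock at 12.4 ± 1.57 and Per1 at 10.8 ± 2.14. Dbp, a PAR bZIP transcription factor and a classic clock output, had 8.13 ± 1.88 CPM per kb. Below it came Per2 at 7.03 ± 1.62, Arntl at 6.69 ± 1.10, Cry1 at 6.10 ± 0.819 and Per3 at 3.38 ± 0.558 CPM per kb. The gap to the next member exceeded the larger SD of the pair between Nr1d1 and Cry2, Cry2 and Clock, Per1 and Dbp, and Cry1 and Per3. Between the other neighbours in this order it did not. Thra, which shares exon bases with Nr1d1, had a mean count of 9164, and its part in the level of Nr1d1 was not tested.

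The members differed in how much they varied between mice of 1 sex and genotype. Per2 and Per1, the period genes that also respond to activity, varied most, with a within-group SD of 0.39 and 0.33 in log2 CPM. Clock varied least, at 0.16, against a median of 0.31 over all tested genes. Without female mutant 3 the contrast among members widened. Per2 (SD 0.37) then stood at the 81.5th percentile of all tested genes and Per1 (0.32) at the 76.0th, while Per3 (0.08) stood at the 13.8th and Clock (0.07) at the 8.12th. Per2 spanned 27.3 to 56.4 CPM over the 12 libraries and Clock 151 to 234 CPM, or 151 to 173 CPM in the 6 wild-type libraries.

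**Figure D1:**
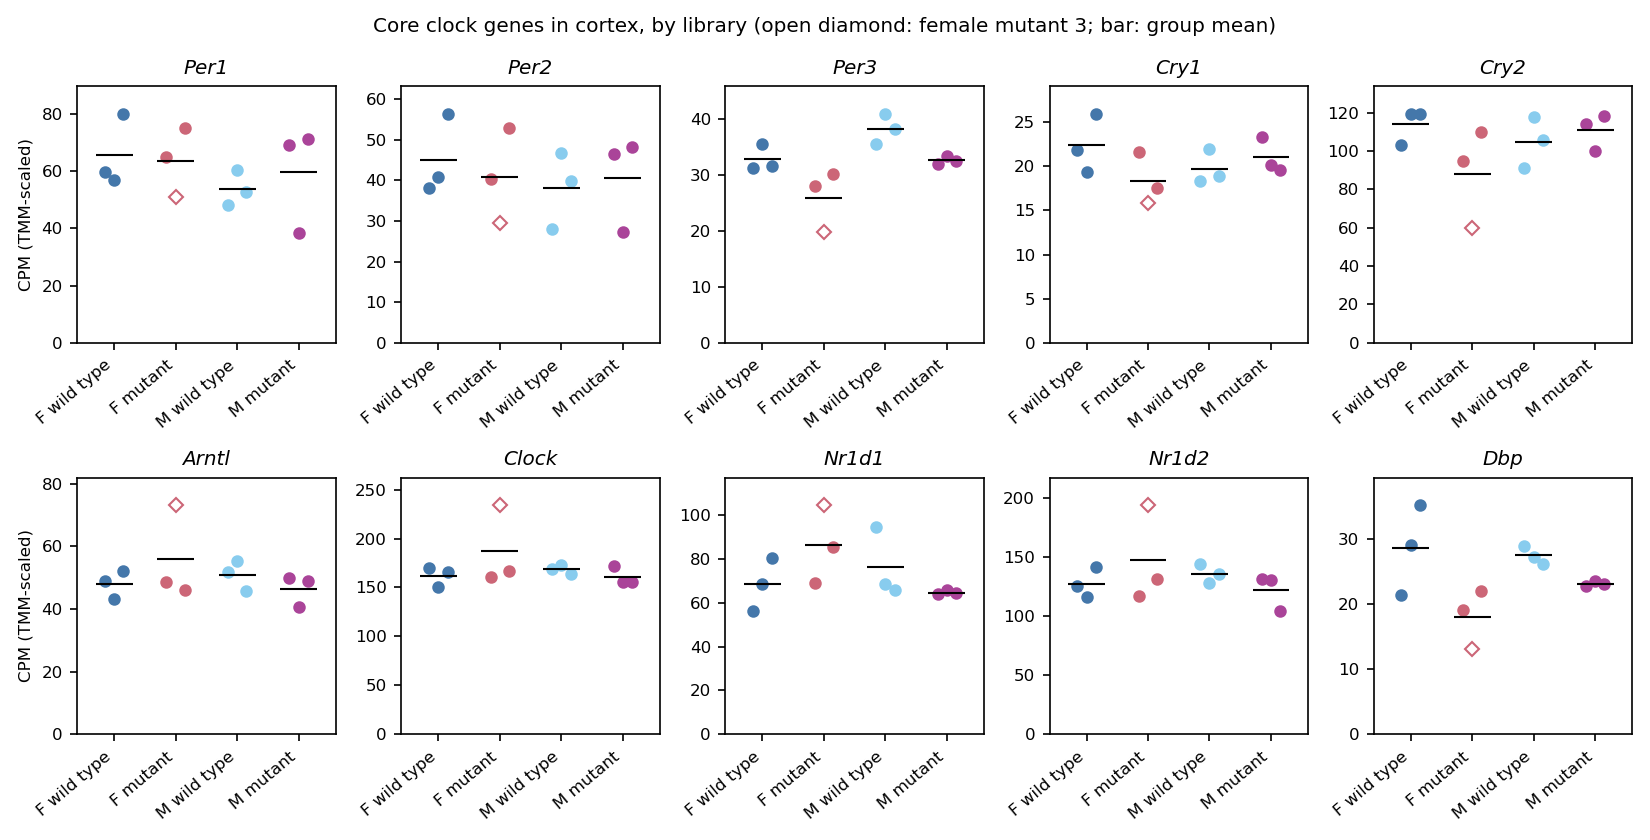
CPM (linear axis from 0, TMM-scaled) of the 10 core clock genes in each of the 12 libraries, by sex (F, M) and genotype, with a bar at each group mean. Per3 lies lower in the mutants of each sex, and female mutant 3 (open diamond) lies above the other libraries for Arntl, Clock, Nr1d1 and Nr1d2 and below them for Per3, Cry1, Cry2 and Dbp.

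The first comparison asked whether the mutants and the wild-type mice differed in any member, with sex as a term. None of the 10 members passed edgeR's quasi-likelihood test at an adjusted p of 0.05, where 0.00555% of the 18016 tested genes (1 gene) did. At an unadjusted p under 0.05, Dbp and Per3 were lower in the mutants, 2 of 10 members, against 3.96% of all tested genes in either direction and 2.45% in the lower direction. By the groups of 6, every member overlapped between the genotypes, and 0.438% of tested genes did not. The other 8 members had log2 differences between -0.14 (Cry2) and 0.06 (Clock). The median over the 10 was 0.01, beside -0.01 for all tested genes.

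Dbp had the largest difference. Its level in the 6 wild-type libraries ran from 21.4 through a median of 28.2 to 35.3 CPM, and in the 6 mutants from 13.2 through 22.4 to 23.5 CPM. Means were 28.1 ± 4.52 and 20.6 ± 3.97 CPM (SD, n = 6 each). Only female wild type 2, at 21.4 CPM, lay within the range of the mutants. The log2 difference was -0.42 with an SE of 0.14 and a 95% interval of -0.72 to -0.13, at an unadjusted p of 0.00892 and an adjusted p of 0.950 in edgeR's quasi-likelihood test. Without female mutant 3 it was -0.35, with an adjusted p of 0.488. An exact permutation of genotype within each sex (400 labellings, two-sided, added after the data were seen) gave p = 0.01 for Dbp, without adjustment for the 10 members.

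Per3, the period gene with the D-box pair printed above, was second. Wild-type libraries held 31.3 to 41.0 CPM with a median of 35.6, and mutants 19.7 to 33.5 CPM with a median of 31.1. Means were 35.6 ± 3.76 and 29.3 ± 5.07 CPM (SD, n = 6 each). The log2 difference was -0.26 (SE 0.09, 95% interval -0.47 to -0.06), with an unadjusted p of 0.0154 and an adjusted p of 0.950 by edgeR. It was -0.20 without female mutant 3, with an unadjusted p of 0.00491 and an adjusted p of 0.463.

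Taken by sex, Per3 separated the genotypes. In females the wild-type values were 31.3, 31.6 and 35.6 CPM and the mutant values 19.7, 28.0 and 30.1 CPM. In males they were 35.6, 38.2 and 41.0 CPM in wild type and 32.0, 32.5 and 33.5 CPM in mutants. All 3 mutants of each sex thus lay below all 3 wild-type mice of that sex, a pattern met by 92 genes, 0.511% of those tested. Any gene with this pattern has p = 0.005 in the exact permutation within sex, the smallest that 400 labellings allow. For Per3 that p-value therefore only restates the separation. The 8 members other than Per3 and Dbp gave 0.41 or more. These permutation values carry no adjustment over genes.

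Females had less Per3 than males of the same genotype on average, with 32.8 ± 2.40 against 38.3 ± 2.70 CPM in wild type and 26.0 ± 5.48 against 32.7 ± 0.722 CPM in mutants (SD, n = 3 each). The log2 difference of females from males was -0.26 (SE 0.09), with an unadjusted p of 0.0177 and an adjusted p of 0.897 in edgeR's quasi-likelihood test. Of the 10 members it alone had an unadjusted p under 0.05 for sex, against 1.77% of tested genes, and none passed after adjustment, where 0.0389% of genes (7) did.

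Dbp separated the genotypes in males and overlapped in females. Male wild-type mice had 26.2, 27.3 and 29.0 CPM and male mutants 22.8, 23.1 and 23.5 CPM, a separation in this direction met by 6.62% of tested genes. Female wild-type mice had 21.4, 29.2 and 35.3 CPM and female mutants 13.2, 19.1 and 22.0 CPM. The log2 difference of Dbp was nonetheless larger in females (-0.60, SE 0.19) than in males (-0.25, SE 0.18). In edgeR's quasi-likelihood test the females had an unadjusted p of 0.00793 and an adjusted p of 0.418, and the males 0.194 and 0.9999. The difference between the sexes was -0.35 (SE 0.26), with an adjusted p of 0.585 by edgeR. It was -0.22 without female mutant 3 and ran from -0.53 (without female wild type 2) to -0.17 (without female wild type 5) with 1 library left out. Over all members, 0 of 10 were called in females and 0 in males, as were 0% of tested genes in each. At an unadjusted p under 0.05, 1 member (Dbp) stood in females, beside 11.8% of genes, and 0 in males, beside 2.78%. DESeq2 and limma-voom with or without library weights also called 0 members in every comparison. Over both sexes they called 0.161% of tested genes (DESeq2), 0.00555% (limma-voom) and 0.122% (with weights), and edgeR without female mutant 3 called 0.0108%. The same 3 fits called 0% to 0.0222% of genes in females, in males and for the interaction, and 0.0389% to 0.0666% for sex.

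**Figure D2:**
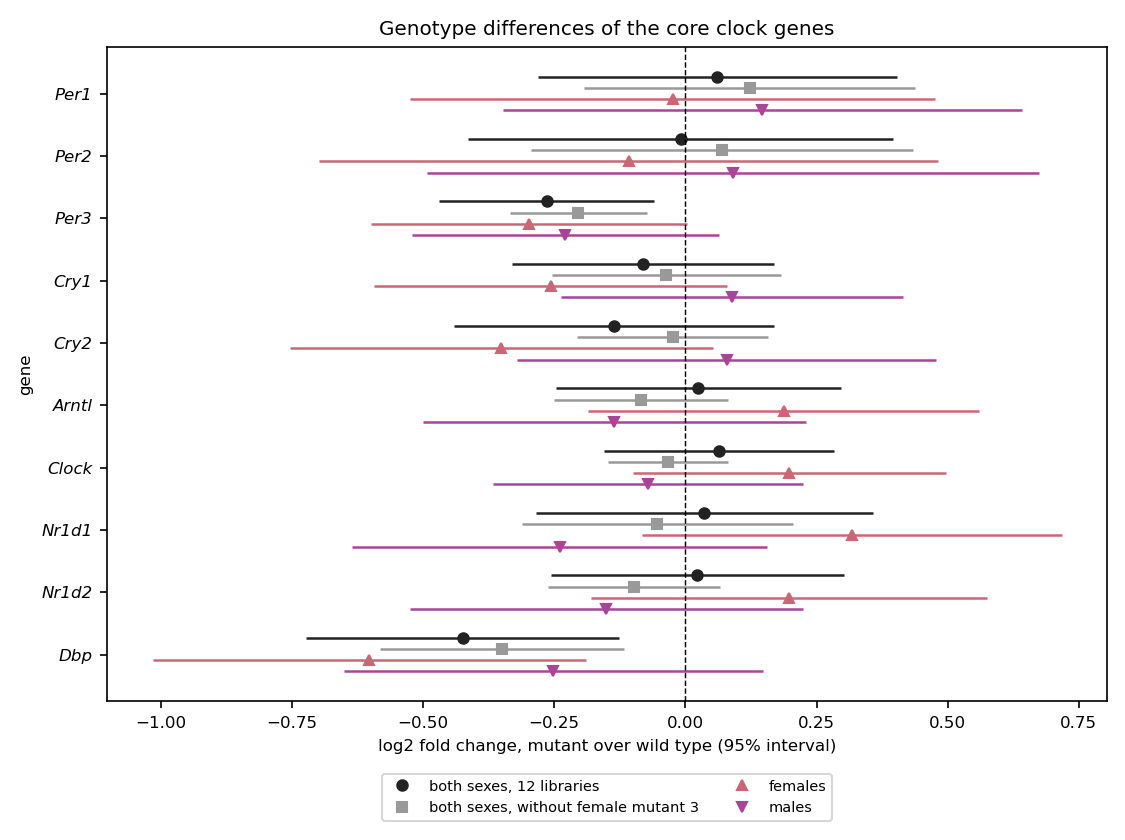
Log2 fold change of mutant over wild type (x axis) with 95% intervals from edgeR for each core clock gene, over both sexes with 12 libraries (black circles), over both sexes without female mutant 3 (grey squares), in females (triangles pointing up) and in males (triangles pointing down). The estimates of Dbp and Per3 lie below 0 in all 4, and the black and grey intervals of both genes exclude 0 before adjustment over genes.

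The positive limb, Arntl and Clock, showed no genotype difference beyond the spread between mice. Arntl measured 43.1 to 55.5 CPM in wild-type libraries with a median of 50.3, and 40.5 to 73.2 CPM in mutants with a median of 48.8. Its log2 difference was 0.02 with a 95% interval of -0.25 to 0.30. Clock measured 151 to 173 CPM in wild type and 155 to 234 CPM in mutants, with a log2 difference of 0.06 and an interval of -0.16 to 0.28. The upper ends, 73.2 and 234 CPM, were both female mutant 3, and without it the log2 differences were -0.08 for Arntl and -0.03 for Clock.

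Among the repressors, the period genes Per1 and Per2 spread widely in both genotypes. Per1 ran from 48.3 through a median of 58.3 to 80.1 CPM in wild type and from 38.4 through 67.0 to 75.0 CPM in mutants. Per2 ran from 28.0 through 40.3 to 56.4 CPM in wild type and from 27.3 through 43.4 to 52.7 CPM in mutants. Their log2 differences were 0.06 (95% interval -0.28 to 0.40) and -0.01 (-0.41 to 0.40), so these 12 libraries leave room for a change of Per2 by up to 0.41 in log2 in the lower direction. The cryptochrome genes, whose proteins repress CLOCK and the Arntl protein, were at 18.3 to 26.0 CPM in wild type and 15.9 to 23.3 CPM in mutants for Cry1, and at 91.1 to 119.5 CPM and 59.6 to 118 CPM for Cry2. Their log2 differences were -0.08 (95% interval -0.33 to 0.17) and -0.14 (-0.44 to 0.17). Without female mutant 3, Cry2 was at 94.9 CPM or more in every mutant.

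Nr1d1 and Nr1d2 encode Rev-erb alpha and Rev-erb beta, heme-binding nuclear receptors whose repression runs through the complex that holds the mutated protein. Over both sexes neither passed the test. Nr1d1 had a log2 difference of 0.04 (95% interval -0.28 to 0.36) and Nr1d2 of 0.02 (-0.26 to 0.30). By sex the estimates of Nr1d1 pointed opposite ways. Female wild-type mice had 56.4, 68.6 and 80.6 CPM and female mutants 68.9, 85.2 and 105 CPM, whereas male wild-type mice had 65.9, 68.5 and 94.5 CPM and male mutants 63.8, 64.4 and 65.6 CPM. The groups overlapped in females. In males the mutants lay below the wild-type mice by a narrow margin, 65.6 against 65.9 CPM at the nearest, a separation in this direction met by 6.62% of tested genes. The interaction was 0.56 (SE 0.26), with an unadjusted p of 0.0517 and an adjusted p of 0.555 by edgeR, and 0.41 without female mutant 3. No member passed for the interaction, where 0% of tested genes did, nor had any an unadjusted p under 0.05, beside 7.67% of genes.

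The members were then compared across libraries, as the correlation of log2 CPM over the 12 mice for all 45 pairs. The hour at which each mouse was killed is not known, so these correlations cannot be placed in circadian time. By Pearson's r, 6 pairs passed a permutation test (100000 resamples, two-sided) with Benjamini-Hochberg adjustment over the 45, and all 6 were positive. The share of pairs of other genes that would pass in these libraries was not examined, so the count is not particular to clock genes. Spearman's rho called 1 pair, Per1 with Per2. Without female mutant 3, 1 of the 45 passed, again Per1 with Per2. With the mean of each sex and genotype removed, 0 passed in an exact permutation within groups, and 7 had an unadjusted p under 0.05.

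Per1 and Per2, both E-box targets, varied together from mouse to mouse. Their r was 0.92 (permutation p = 3e-05, adjusted 0.00135) and their rho 0.94 (permutation p = 2e-05, adjusted 0.0009). Without the 2 libraries farthest from the median of Per1, female wild type 5 and male mutant 10, r was 0.88. It was 0.93 without female mutant 3 and 0.93 with group means removed (exact permutation p = 0.00231, adjusted 0.0521). Female wild type 5 was highest in both genes, at 80.1 and 56.4 CPM, and male mutant 10 lowest in both, at 38.4 and 27.3 CPM. These libraries were also the highest and lowest for summed striatal neuron markers, at 1637 and 215 CPM. The part of this difference in the correlations with Per1 and Per2 was not tested.

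Arntl and Clock, the pair that acts as a dimer, also varied together. Their r was 0.91 (permutation p = 0.00062, adjusted 0.0139) and their rho 0.78 (permutation p = 0.00395, adjusted 0.0732). Leaving out male mutant 10 and female mutant 3, the libraries farthest from the median of Arntl, gave r = 0.67. Without female mutant 3 alone r was 0.72, with an adjusted permutation p of 0.162. With library totals in place of TMM scaling r was 0.50, with an adjusted permutation p of 0.293.

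Arntl and Clock were set against the targets of their dimer in 12 pairs, each of both genes with Per1, Per2, Per3, Dbp, Nr1d1 and Nr1d2. Over 12 libraries 7 of the 12 pairs had a negative r, the lowest being -0.73 for Clock with Per3 (permutation p = 0.0559, adjusted 0.140), and no negative pair passed. Arntl had r = -0.62 with Per3 (permutation p = 0.0640, adjusted 0.144) and -0.51 with Dbp (p = 0.103, adjusted 0.185), and Clock had -0.67 with Dbp (p = 0.0471, adjusted 0.132). By rank these relations were weaker, with a rho of -0.15 for Arntl with Per3, -0.19 for Clock with Per3, -0.05 for Arntl with Dbp and -0.34 for Clock with Dbp (permutation p of 0.288 or more, adjusted 0.688 or more). Cry2, a repressor outside the 12 pairs, had the lowest r of all 45, at -0.83 with Clock (permutation p = 0.0327, adjusted 0.0993) and rho -0.34 (permutation p = 0.287, adjusted 0.688).

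The negative r values over the 12 libraries depended on female mutant 3. In that library Arntl and Clock were the highest of the 12, at 73.2 and 234 CPM, and Per3, Dbp and Cry2 the lowest, at 19.7, 13.2 and 59.6 CPM. Without it 0 of the 12 pairs were negative. Arntl then had r = 0.15 with Per3 and 0.25 with Dbp, Clock had 0.14 and 0.04, and Clock with Cry2 had -0.11. The r values of the 12 pairs lay between 0.04 and 0.60 and none passed. With the mean of each sex and genotype removed, the 12 pairs held values of both signs without that library. Arntl with Per3 then had r = -0.82 (exact permutation p = 0.0571, adjusted 0.267) over 12 libraries and -0.37 over 11. Clock with Per3 had -0.89 (exact permutation p = 0.0656, adjusted 0.268) and -0.38, and Clock with Dbp -0.68 (exact permutation p = 0.178, adjusted 0.411) and -0.15. Over the same 11 libraries Arntl had 0.76 with Per1, 0.56 with Per2, 0.09 with Dbp, 0.11 with Nr1d1 and -0.005 with Nr1d2. Clock had 0.47 with Per1, 0.34 with Per2, 0.51 with Nr1d2 and -0.01 with Nr1d1. Female mutant 3 had the low depth, high mitochondrial share and low TMM factor given above, and their part in its clock profile was not tested.

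With the Rev-erb genes, Arntl and Clock had positive values. Over 12 libraries r was 0.62 for Arntl with Nr1d1, 0.73 for Arntl with Nr1d2, 0.63 for Clock with Nr1d1 and 0.88 for Clock with Nr1d2. Of these, Clock with Nr1d2 passed (permutation p = 0.00222, adjusted 0.0333), with a rho of 0.53 (permutation p = 0.0795, adjusted 0.397), and r without the libraries farthest from the median of Clock, female wild type 4 and female mutant 3, was 0.53. The other 3 had permutation p-values of 0.0245 to 0.0331 and an adjusted p of 0.0993. Female mutant 3 held the highest Nr1d1 and Nr1d2 of the 12, at 105 and 194 CPM. Without it r was 0.60 for Clock with Nr1d2 and between 0.17 and 0.23 for the other 3.

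**Figure D3:**
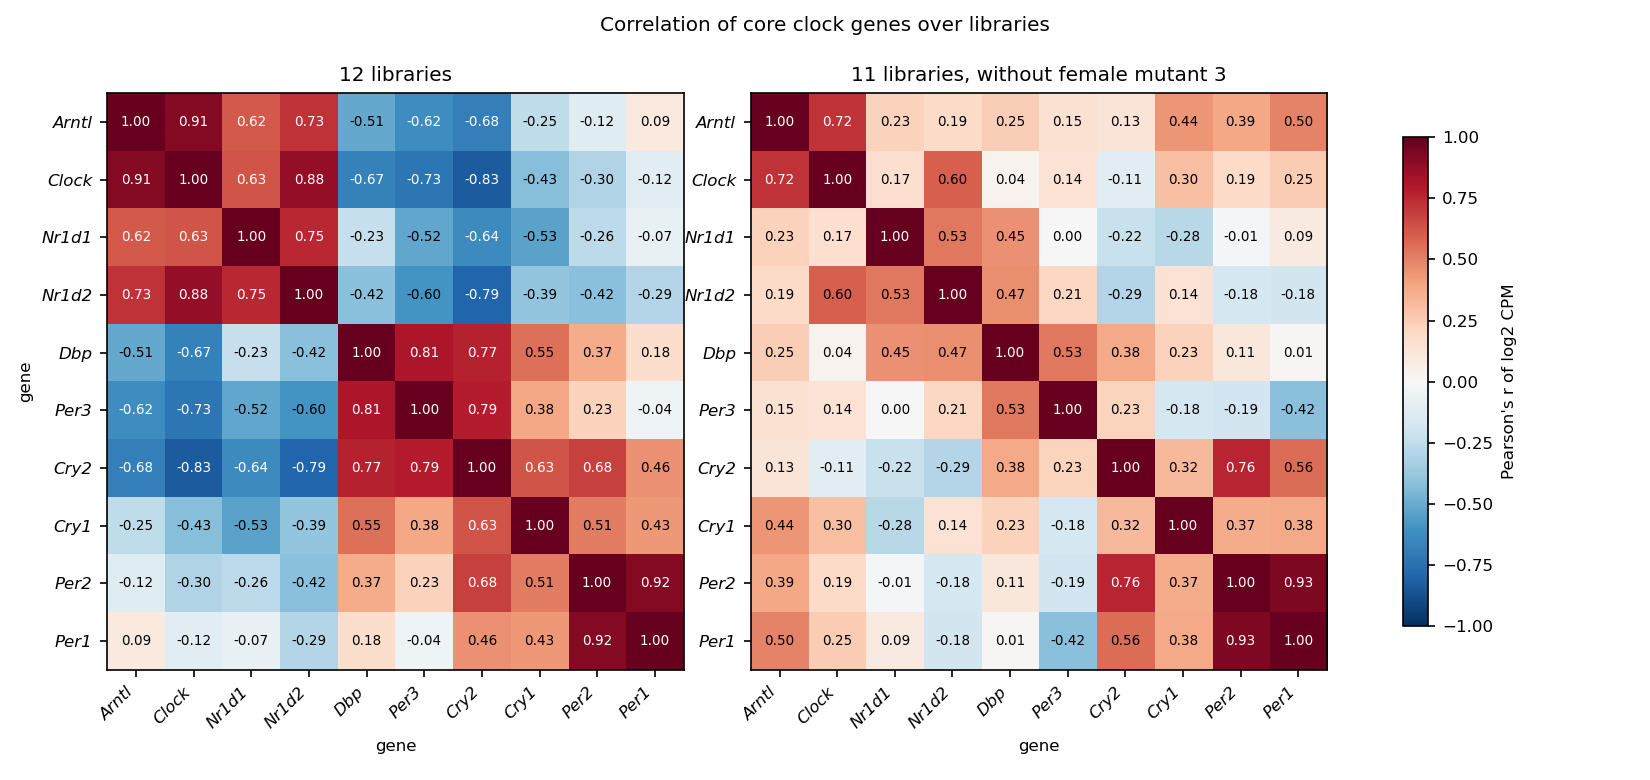
Pearson's r of log2 CPM for each pair of the 10 core clock genes (both axes list the genes), over 12 libraries on the left and 11 libraries on the right. The block of Arntl, Clock and the Rev-erb genes with Per3, Dbp and Cry2 lies between -0.83 and -0.23 on the left and between -0.29 and 0.47 on the right, while Per1 with Per2 stays at 0.92 and 0.93.

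Of the remaining called pairs, Per3 with Dbp had r = 0.81 over the 12 libraries (permutation p = 0.00424, adjusted 0.0382), a rho of 0.73 (permutation p = 0.00881, adjusted 0.0991) and r = 0.53 without female mutant 3. With group means removed, its r was 0.67 (exact permutation p = 0.201, adjusted 0.432), and 0.14 without that library. Nr1d1 with Nr1d2 had r = 0.75 (permutation p = 0.00412, adjusted 0.0382) and 0.53 without that library, with a rho of 0.60 (permutation p = 0.0430, adjusted 0.315). Per2 with Cry2 had r = 0.68 (permutation p = 0.00533, adjusted 0.0400) and 0.76 without it, with a rho of 0.77 (permutation p = 0.00488, adjusted 0.0732). Leaving out the 2 libraries farthest from the median of the first gene gave r = 0.55 for Per3 with Dbp, 0.36 for Nr1d1 with Nr1d2 and 0.82 for Per2 with Cry2.

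Per3 and Dbp were followed within each genotype, a split added after the data were seen. Among the 6 mutants their order was the same, with r = 0.996 (exact permutation p = 0.00139, adjusted 0.0313 over 45 pairs) and rho = 1 (exact permutation p = 0.00278, adjusted 0.0625). The r was 0.961 over the 5 mutants other than female mutant 3, and 0.995 without the 2 mutants farthest from the median of Per3. All 3 male mutants lay above all 3 female mutants in both genes, and the orders permuted here ignored sex. Among the 6 wild-type mice r was -0.02 (exact permutation p = 0.968, adjusted 0.968) and rho -0.09 (exact permutation p = 0.919, adjusted 0.940). The difference between the genotypes was not tested. By Pearson's r, 2 of 45 pairs passed among the mutants, the other being Per1 with Per2 (r = 0.955, exact permutation p = 0.00139, adjusted 0.0313), and 0 among the wild-type mice, where 5 had an unadjusted p under 0.05, as did 11 among the mutants. The strongest in wild type was Per1 with Cry1, with r = 0.967 (exact permutation p = 0.00139, adjusted 0.0625) and rho = 1. With 6 libraries the exact permutation p cannot go below 0.00139 for r or 0.00278 for rho, so 1 pair alone cannot pass over the 45, and the absence of a call in wild type says little.

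**Figure D4:**
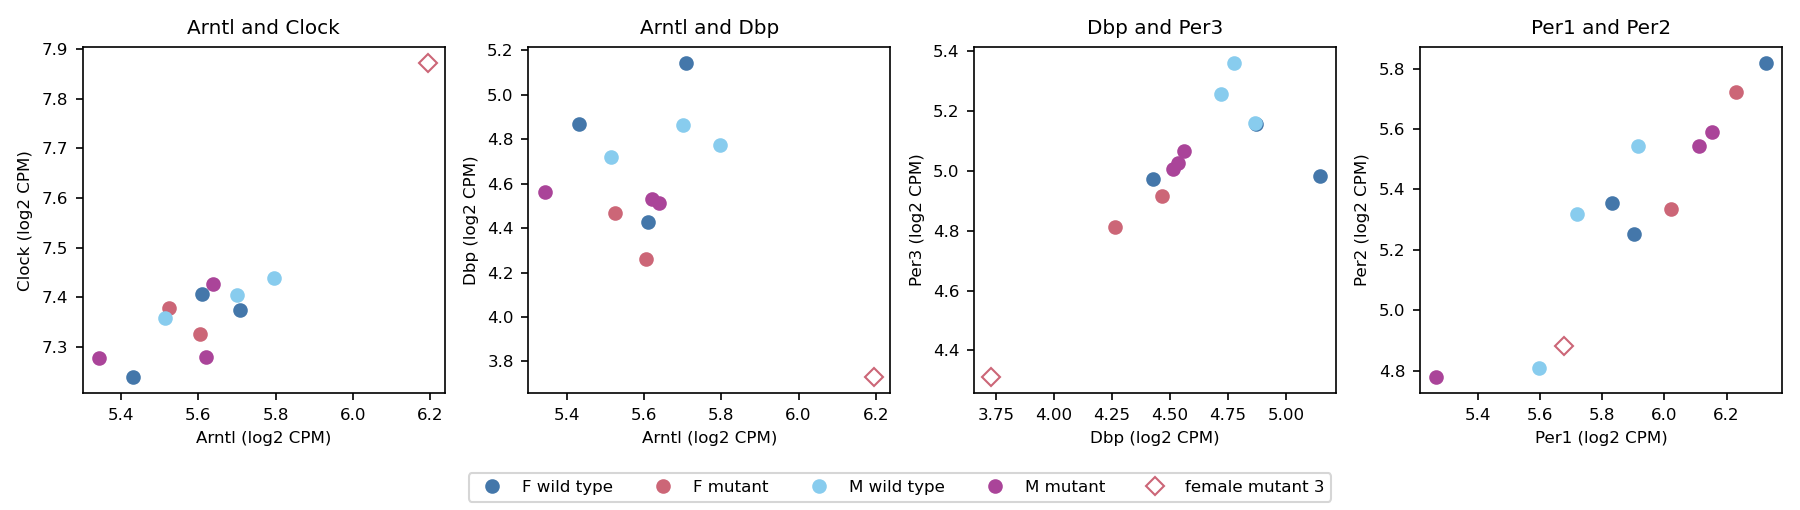
Log2 CPM (both axes) of 4 pairs of clock genes, 1 point per library, coloured by sex (F, M) and genotype, with female mutant 3 as an open diamond. That library sits alone at high Arntl and low Dbp, the 6 mutants fall along 1 line for Dbp with Per3, and Per1 with Per2 holds over all 12 libraries.

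Because Per1 responds to neuronal activity and to glucocorticoids, its level was set beside 12 genes induced by these stimuli, a comparison also added after the data were seen. Group means were not removed here, and the share of all tested genes that would pass with Per1 was not examined. By r, 4 of the 12 passed, all of them immediate early genes. The r of Per1 over 12 libraries was 0.85 with Egr1 (permutation p = 0.00043, adjusted 0.00516 over 12 genes), 0.80 with Nr4a1 (p = 0.00168, adjusted 0.0101), 0.73 with Fos (p = 0.00739, adjusted 0.0296) and 0.69 with Arc (p = 0.0136, adjusted 0.0407). The corresponding rho values were 0.62 (permutation p = 0.0373, adjusted 0.0639), 0.85 (p = 0.00092, adjusted 0.00276), 0.72 (p = 0.0112, adjusted 0.0268) and 0.86 (p = 0.00046, adjusted 0.00276). The other 4 genes tied to activity did not pass by r, with 0.56 for Dusp1 (permutation p = 0.0587, adjusted 0.141), 0.52 for Fosb (p = 0.0885, adjusted 0.158), 0.51 for Junb (p = 0.0923, adjusted 0.158) and 0.25 for Npas4 (p = 0.423, adjusted 0.508). Of these, Fosb and Junb passed by rho, at 0.85 and 0.86 (adjusted permutation p = 0.00276 each). Leaving out female wild type 5 and male mutant 10 gave, for Egr1, Nr4a1, Fos and Arc, r = 0.59, 0.78, 0.71 and 0.66. Without female mutant 3, 6 of the 12 passed, with r = 0.92 for Nr4a1, 0.89 for Egr1, 0.87 for Arc, 0.79 for Junb, 0.71 for Fos and 0.71 for Fosb (adjusted permutation p of 0.0347 or less). The glucocorticoid-induced genes did not pass, with r = 0.40 for Fkbp5, 0.10 for Sgk1, -0.31 for Tsc22d3 and -0.15 for Zbtb16 over 12 libraries (permutation p of 0.200 or more, adjusted 0.299 or more).

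The genes whose level most resembled Arntl and Dbp were ranked by Pearson's r of log2 CPM over the 11 libraries other than female mutant 3, among 13171 genes of at least 1 CPM. These libraries share the same 4 groups, and the ranking is a description. Nearest to Arntl were Phtf2 (r = 0.93), Mak (0.91), Crh (0.89), Trak2 (0.88) and Sgk3 (0.88), and most opposed were Adsl (-0.92), Efemp2 (-0.91), Sesn2 (-0.89), Dnase2a (-0.88) and Smarcd2 (-0.87). With all 12 libraries these kept their sign, at 0.87 to 0.96 and -0.93 to -0.81. Nearest to Dbp were Trem2 (0.92), Camk2g (0.90), Fam131b (0.90), Sytl2 (0.89) and Pou6f1 (0.87), and most opposed were Gprasp1 (-0.93), Ahi1 (-0.91), Rab27a (-0.90), Mrap2 (-0.90) and Tspan33 (-0.89). With all 12 libraries Rab27a and Mrap2 turned positive, at 0.11 and 0.42. No member was among the candidates of this ranking.

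The wider clock was described through 6 lists, and 0 of their genes passed edgeR's test between genotypes, nor did any by DESeq2 or limma-voom with or without library weights. Of 8 genes driven through RORE elements, the targets the Rev-erb proteins repress, 5 were higher and 3 lower in the mutants, with a median log2 difference of 0.04. E2f8 had 0.41 (SE 0.34), Bhlhe41, a repressor of E-box transcription, 0.34 (SE 0.22), Nfil3, the repressor that competes at D-boxes, 0.26 (SE 0.13) and Npas2, the paralog of Clock, -0.13 (SE 0.11). Unadjusted edgeR p-values of the 8 were all 0.0681 or more. Of 14 genes driven through E-boxes or D-boxes, 10 were lower and 4 higher, with a median of -0.10, and the 2 with an unadjusted p under 0.05 were Dbp and Per3. Usp2, a deubiquitinase under clock control, had -0.22 (SE 0.11), with an adjusted p of 0.950 by edgeR. The median over all tested genes was -0.01.

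Among 11 other clock activators and repressors, 7 were lower and 4 higher, with a median of -0.02. Bhlhe40, the partner of Bhlhe41, had a log2 difference of -0.15 (SE 0.15). Of 14 kinases, ubiquitin ligases and other modifiers of clock proteins, 11 were lower and 3 higher, with a median of -0.07. Fbxl21, a ligase subunit that acts on cryptochromes, had -0.37 (SE 0.21), Csnk2a1, a casein kinase subunit, -0.11 (SE 0.07) and Usp7, a deubiquitinase, 0.19 (SE 0.14). Of 5 corepressor genes that serve the Rev-erb proteins, 3 were lower and 2 higher, with a median of -0.06. Tbl1xr1 itself had 105 ± 7.05 CPM in wild type and 93.5 ± 2.69 in mutants (SD, n = 6 each), a log2 difference of -0.17 (SE 0.07), with an unadjusted p of 0.0251 and an adjusted p of 0.950 by edgeR. Hdac3 had -0.07 (SE 0.08), Ncor1 0.16 (SE 0.14) and Gps2 0.35 (SE 0.23). Over both sexes none of the 3 had an unadjusted edgeR p under 0.05. In females 3 of the 5 were higher and 2 lower, with Gps2 at 0.92 and Ncor1 at 0.43 (unadjusted edgeR p of 0.00338 and 0.0211, adjusted 0.418 each). By edgeR, 2 of the 5 had an unadjusted p under 0.05 in females, beside 11.8% of tested genes. In males 1 did, lower in mutants (2.78% of genes), and for the interaction 3 did (7.67%). The sum of the 5 was highest in female mutant 3, at 869 CPM, and 545 to 661 CPM elsewhere.

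The 12 genes induced by activity or glucocorticoids had a median of -0.03, with 8 lower and 4 higher in the mutants. Npas4, a neuronal activity factor, had -0.40 (SE 0.18), with an unadjusted p of 0.0443 and an adjusted p of 0.950 by edgeR. Sgk1 had -0.17 (SE 0.09), Tsc22d3 -0.09 (SE 0.11) and Dusp1 0.15 (SE 0.19). Summed over the 12, wild-type libraries held 719 to 1242 CPM and mutants 610 to 1111 CPM, which overlap.

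**Figure D5:**
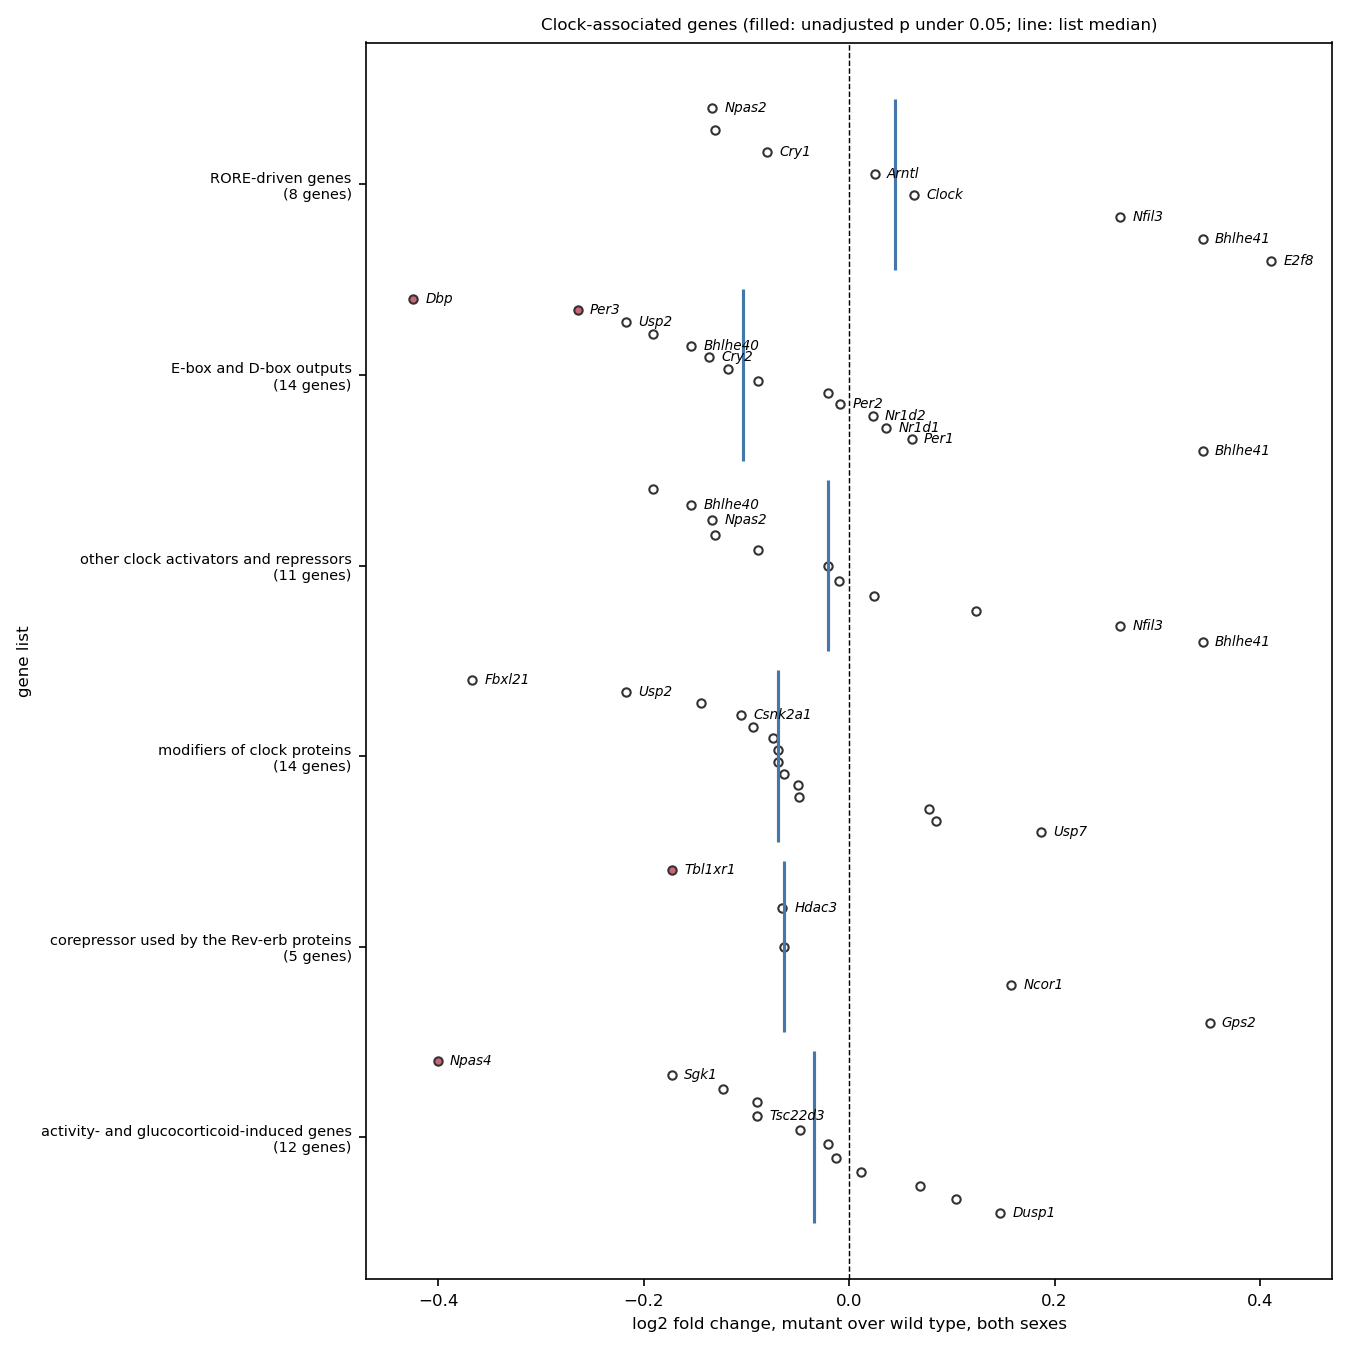
Log2 fold change of mutant over wild type over both sexes (x axis, edgeR) for the genes of 6 lists around the clock (y axis), with filled points at an unadjusted p under 0.05 a vertical line at the median of each list, and labels for the members and the named genes. Dbp, Per3, Tbl1xr1 and Npas4 are the filled points, all lower in the mutants, and no gene passed after adjustment.

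Markers of other tissues and cell types were also compared between the genotypes, and edgeR called 0 of them over both sexes. All 10 striatal neuron markers were lower in the mutants. They summed to 429 to 1637 CPM in wild type (median 876) and 215 to 1086 CPM in mutants (median 525). Female wild-type mice alone spanned 512 to 1637 CPM. Of the 10, 5 had an unadjusted edgeR p under 0.05, beside 3.96% of tested genes, and 0 were called. Summed astrocyte markers (5 genes) ran from 1011 to 1171 CPM in wild type and from 1202 to 1394 CPM in mutants without overlap. Of single tested genes, 0.438% did not overlap. Gfap, Gja1 and Aqp4 were higher at an unadjusted edgeR p under 0.05, with an adjusted p of 0.950 each. DESeq2 without female mutant 3, a fit added after the data were seen, called Gfap and 0.287% of tested genes. The fits by edgeR with or without that library, DESeq2 over 12 libraries and limma-voom with or without weights called 0 astrocyte markers. The astrocyte marker Aldh1l1 went the other way, with a log2 difference of -0.25 (SE 0.13) over both sexes and -0.43 in females (unadjusted p of 0.0297 in edgeR's quasi-likelihood test). Neither list has a marker at 0. The other 8 marker lists had median log2 differences between -0.20 (microglia) and 0.15 (blood), with Clic6 of the choroid plexus and the microglial Trem2 lower at an unadjusted p under 0.05. Of the 5 microglial markers, P2ry12 alone had a positive estimate, at 0.34 (SE 0.25) over both sexes and 0.82 in females. All 5 blood markers were lower in female mutants (median -0.69) and higher in male mutants (median 0.94). Each had an unadjusted edgeR p under 0.05 for the interaction, beside 7.67% of tested genes, and 0 were called. In such bulk tissue, fewer cells of a type, less RNA per cell and a different share of neighbouring tissue cannot be told apart. The part of these markers in the lower Dbp and Per3 was not tested.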

How the data were processed

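Per the labels, cortex RNA was turned into libraries with the Kapa mRNA HyperPrep kit and sequenced on a NovaSeq. Per the submitters' processing notes, Trimmomatic 0.36, HISAT2 2.1.0, HTSeq 0.11 and Cufflinks were used with build GRCm38.p6. The authors deposited 1 table of raw counts, whole numbers per gene and library, and the sources used here give neither strand setting nor annotation release. Of 54232 identifiers, 54165 matched GENCODE M21. Low counts were filtered with filterByExpr by group, scaling was by TMM and the test was that of edgeR 4.0.16 (quasi-likelihood, R 4.3.3), with Benjamini-Hochberg adjustment over all 18016 genes and a threshold of 0.05. Log2 CPM used a prior count of 2. P-values measure the spread between mice. A floor of 3 counts per library was chosen. It equals 0.0918 to 0.141 CPM of unscaled totals in 11 libraries and 0.800 CPM in female mutant 3.

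All 10 members are described. Of each list, the 4 genes of smallest unadjusted p over both sexes are named where its values are given by gene, as are the 5 nearest and 5 most opposed genes of Arntl and Dbp. Some genes of the lists are not reported here. Members and lists were chosen with earlier results of these data known. Alternatives were DESeq2 1.42.0, limma 3.58.1 (voom, with and without library weights), other scalings and filters, other terms, a prior count of 0.5, Spearman's rho and leaving out each library. Added after the data were seen were DESeq2 and the weighted fit without female mutant 3, the permutation within sex, correlations within genotype and the relation of Per1 to induced genes. The fits and correlations were tested on simulated data.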

Additional observations from a re-analysis of the deposited data

Results flagged for a closer look

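In female mutant 3, 3 members stood apart from the other 5 mutants by more than Dixon's 95% limit for 6 values (0.625 of the range). Arntl was at 73.2 CPM, with a gap to the next mutant of 0.717 of the range, Clock at 234 CPM (0.788) and Nr1d2 at 194 CPM (0.699). In the test, 20 groups were examined (10 members in each genotype), and chance flags about 1 in 20 groups. The 3 flags share 1 library, the one with 3748515 counts, a mitochondrial share of 31.6% and a TMM factor of 0.690. The other 11 libraries had factors of 0.987 to 1.09. A lower factor raises every CPM of its library, and the part of depth, mitochondrial share and scaling in the values was not tested.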

How the results depend on the processing

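No member was called in any of the 5 comparisons under any alternative, and Dbp and Per3 were lower in the mutants over both sexes in all 24 alternatives, at -0.49 to -0.33 for Dbp and -0.34 to -0.19 for Per3. Adjusted p ran from 0.216 to 0.9998 for Dbp and from 0.107 to 0.9998 for Per3. Over all genes the number called over both sexes was 1 with edgeR, 29 with DESeq2 and 22 with weighted limma-voom, and without female mutant 3 it was 2, 53 and 4. No paired analysis was possible because no animal number occurs in more than 1 group. Log2 differences near 0 changed sign without any call. With limma-voom they were 0.012 for Per2, -0.032 for Arntl and -0.029 for Nr1d2. With library weights they were -0.051 for Arntl, -0.020 for Clock, -0.0037 for Nr1d1 and -0.083 for Nr1d2, and the interaction of Per3 was 0.094. With library totals they were -0.016 for Per1, -0.076 for Arntl, -0.045 for Clock, -0.057 for Nr1d1 and -0.086 for Nr1d2, where the median of all genes was -0.08. With the mitochondrial share as a term they were 0.091 for Per2, 0.00011 for Cry2, -0.10 for Arntl, -0.044 for Clock, -0.083 for Nr1d1, -0.12 for Nr1d2 and -0.0057 for Ncor1. Leaving out 1 library at a time gave -0.013 to 0.161 for Per1 (lowest without male mutant 27), -0.101 to 0.090 for Per2, -0.085 to 0.086 for Arntl, -0.033 to 0.092 for Clock, -0.053 to 0.147 for Nr1d1, -0.098 to 0.088 for Nr1d2, -0.012 to 0.172 for Cry2 in males and -0.185 to 0.053 for the interaction of Per3. The lowest values of Arntl, Clock, Nr1d1 and Nr1d2 and the highest of that interaction came without female mutant 3. Signs also turned without female wild type 4 for Arntl (-0.023) and Nr1d2 (-0.025) and without female wild type 2 for Nr1d1 (-0.048) and Nr1d2 (-0.0026).

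The correlations depended more on the processing. Pairs called numbered 6 in the main analysis, 2 with library totals, 1 with Spearman's rho and 1 to 7 with 1 library left out, the 1 being without female mutant 3. With group means removed, 0 to 3 were called with 1 library left out, the 3 being without female wild type 4. With library totals, Clock had r = 0.113 with Per1, 0.198 with Per2, 0.461 with Per3, 0.324 with Cry2, 0.276 with Dbp and -0.377 with Nr1d1, and Arntl had 0.157 with Per2, 0.047 with Per3, 0.049 with Dbp and -0.127 with Nr1d1. Some called pairs lost their call with library totals. They were Arntl with Clock (r = 0.501, adjusted permutation p = 0.293), Clock with Nr1d2 (0.469, adjusted 0.324), Nr1d1 with Nr1d2 (0.326, adjusted 0.615) and Per3 with Dbp (0.906, adjusted 0.0504). With rho, Clock and Per1 had 0.028 and Arntl and Per2 0.196. Leaving out 1 library at a time, Arntl had -0.287 to 0.499 with Per1, -0.438 to 0.389 with Per2, -0.816 to 0.154 with Per3, -0.783 to 0.130 with Cry2 and -0.651 to 0.249 with Dbp. Clock had -0.369 to 0.250 with Per1, -0.498 to 0.189 with Per2, -0.842 to 0.145 with Per3 and -0.754 to 0.036 with Dbp. The upper end of each of these 9 ranges came without female mutant 3. Rab27a and Mrap2 had 0.109 and 0.423 with Dbp over all 12 libraries. The cause of these changes was not tested. Depth limits the members most in female mutant 3, where Dbp rests on 34 counts.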
